A study of Mus with 12 samples.

Results

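The blood transcriptome of mice painted with the contact sensitiser 1-chloro-2,4-dinitrobenzene (DNCB) was set against that of mice painted with its solvent. Of the 25247 genes measured, 5280 reached an FPKM of 1 or more in 3 or more of the 6 libraries, and these genes were compared. FPKM, the unit of level used here, is the number of fragments per kilobase of transcript, scaled to the size of the library. All mice were female BALB/c and 6 weeks old at purchase. DNCB mice had 1% DNCB for sensitisation and then repeated challenges with 0.5% DNCB, both on the shaved back and the right ear. Solvent mice had only the vehicle, a 3 to 1 mixture of acetone and olive oil, and the backs of all mice were shaved. Whole blood was taken on day 30, and total RNA was sequenced in 3 libraries per group. The same series holds 2 further groups of 3 libraries (scMSC and scivMSC), DNCB mice injected with human mesenchymal stem cells, which entered the statistical model but are not described. Neither the labels nor the methods say that each library came from a separate mouse, so the p-values measure the spread between these libraries. All blood came from 1 time point.

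DNCB is a hapten: it binds to skin proteins, and repeated exposure gives a contact hypersensitivity with dermatitis, in which sensitised T cells and innate cells both take part. Neutrophils are made in the bone marrow under the growth factor G-CSF, store antimicrobial proteins in granules, and follow chemokines, formyl peptides and complement fragments into inflamed tissue. Lymphocytes circulate between blood, lymph nodes and skin, and most RNA of whole blood is haemoglobin transcript from reticulocytes.

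The 6 libraries held between 58.1 M and 65.1 M estimated counts, and haemoglobin genes took 93.6% ± 1.2 (SD, n = 3) of summed FPKM in Solvent and 92.5% ± 1.01 (SD, n = 3) in DNCB. This difference of -1.16 percentage points did not pass a two-sided exact permutation test (p = 0.3, where 0.1 is the smallest that 3 against 3 libraries can give). Across genes, log2 FPKM values correlated with Pearson's r of 0.968 to 0.974 between libraries of the same group and of 0.789 to 0.843 between groups. Solvent 1 stood apart from the other Solvent libraries, with 6371 genes at an FPKM of at least 1 against 4605 and 4346. Counts on the nuclear ribosomal RNA gene CT010467 made up 0.704%, 0.541% and 1.80% of counts in Solvent and 0.245%, 0.187% and 0.210% in DNCB. The groups did not overlap in this measure, and its part in the results was not tested. The red cell defining gene Slc4a1, at a mean level of 48.4 FPKM in Solvent, was present, as the label of blood calls for. Values are given below in the order of replicates 1, 2 and 3, coordinates are those of the deposited table (GRCm38), and genes beyond the defining and leading members of a list were picked as examples with their values known.

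A gene was called when its adjusted p from edgeR was under 0.05 and its fold change over 2. With libraries scaled by their total counts, 1144 genes were called (21.7% of those tested), 875 higher (16.6%) and 269 lower (5.09%) in DNCB, and the median log2 fold change of all tested genes was 0.07. Scaling by TMM, which assumes that most genes do not change, moved that median by -0.16 to -0.09 and called 1516 genes (28.7%), 882 higher (16.7%) and 634 lower (12%). Without the other 2 groups in the model, 1529 genes were called (29%), 1047 higher (19.8%) and 482 lower (9.13%). Between the total-count and TMM scalings the share of calls that were higher went from 76.5% to 58.2%. All 269 lower calls and 810 of the 875 higher calls were called in the same direction under TMM. Beside the calls of each list below stand these shares of all tested genes, 16.6% higher and 5.09% lower, or 16.7% and 12% under TMM. The fitted log2 fold change was above 0 in 53.8% of genes. The levels of the groups did not overlap in 2226 genes (42.2%): in 1363 (25.8%) every DNCB library lay above every Solvent library, and in 863 (16.3%) every DNCB library lay below. With any of the 12 libraries left out, the higher calls ranged from 589 to 1007. The lower calls were 112 without Solvent 1, 138 without DNCB 1, 93 without DNCB 3 and 415 without scivMSC 2.

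**Figure D1:**
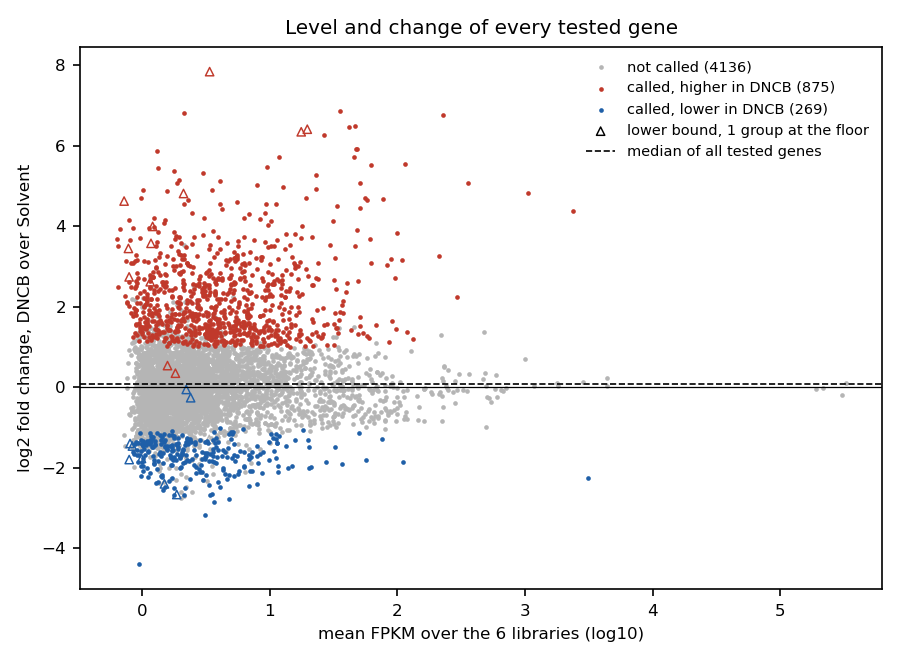
Each point is a tested gene, with its mean FPKM over the 6 libraries on a log10 scale along x and its log2 fold change of DNCB over Solvent along y. Red marks the 875 genes called higher, blue the 269 called lower and grey the rest, the dashed line is the median of 0.07, and open triangles are the 27 genes at the floor of 1 group with a bound above 1-fold, drawn at that bound. The red points reach further from 0 than the blue ones, and they include genes of high level.

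The rule on level bears on these counts. Through DNCB alone 322 genes passed it, of which 260 were called (80.7%), and through Solvent alone 181 genes passed, of which 91 were called (50.3%). Such genes had to differ to be counted, and their calls add no support. They are called single-group genes here. Of the other 4777 genes, 615 were called higher (12.9%) and 178 lower (3.73%). Nearest to the limit, Zfp622 and Chst3 lay just inside with a third-highest FPKM of 1.0004 and 1.0007, and Krt80 and Birc6 lay just outside with 0.9997 and 0.9995.

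Markers of the blood cell types moved apart from each other. All 10 neutrophil markers rose, from a summed FPKM of 389.7, 445 and 219.8 in Solvent to 6975, 10927 and 7049 in DNCB, a ratio of 23.7 between the means. Every DNCB library was far above every Solvent library, and 1 of the 10 had passed the filter through DNCB alone. B cell markers went the other way: 8 of 10 passed the filter and all 8 fell, 1 of them a single-group gene, and their summed FPKM was 157, 79.7 and 51.0 in Solvent and 16.9, 39.1 and 13.8 in DNCB. T cell markers fell in 8 of 10 cases, 1 of them a single-group gene, with sums of 99.3, 61.9 and 59.7 in Solvent and 32.7, 32.7 and 24.0 in DNCB. For both lymphocyte types the sums of the groups did not overlap, although DNCB 2 came nearest to Solvent 3 in the B cell markers. The T cell count was 5 without DNCB 3, and the B cell count was 6 without Solvent 1, DNCB 1 or DNCB 3.

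Other cell types showed smaller differences or few detected markers. Of 7 tested monocyte markers, the growth factor receptor gene Csf1r and F13a1 rose, at 1.73 and 1.47, while Ccr2, the receptor of classical monocytes, had 0.74 (adjusted p 0.311, SE 0.49) with overlapping groups. The monocyte count was 4 without Solvent 1, where Ccr2 was among the calls (adjusted p 0.0440). Both tested NK cell markers, Ncr1 and Klrd1, fell, 1 of them a single-group gene, with summed levels of the list of 5.57 to 8.34 in Solvent and 1.76 to 2.82 in DNCB. Neither NK marker was called without Solvent 1, without Solvent 2 or without DNCB 3, and 1 of them was called without Solvent 3, DNCB 1, DNCB 2 or scMSC 3. Of 10 platelet markers 4 rose, and 2 without Solvent 3 or with haemoglobin genes left out, while no erythroid marker of 7 tested was called by edgeR, DESeq2 or limma, with 1 at an unadjusted p under 0.05. In bulk blood, fewer cells of a type and less RNA per cell cannot be told apart.

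**Figure D2:**
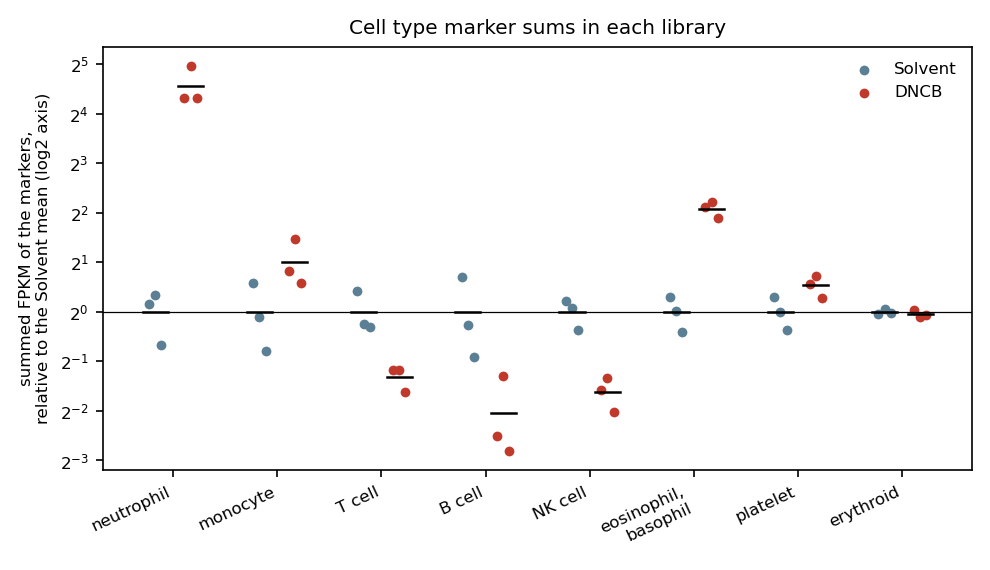
For each of 8 cell types the points give the summed FPKM of its marker genes in each library, divided by the mean of the 3 Solvent libraries, on a log2 axis, with a black bar at each group mean. The neutrophil sums of DNCB stand above all others with a ratio of means of 23.7, the T, B and NK cell sums of DNCB lie under those of Solvent, and the erythroid sums overlap.

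Genes of neutrophil granule proteins were among the largest rises. Ngp (neutrophilic granule protein, chromosome 9, 110419747 to 110423012) had 2.97, 4.90 and 4.61 FPKM in Solvent and 403, 602 and 349.7 in DNCB. Lactotransferrin, which binds iron in secondary granules and is encoded by Ltf (chromosome 9, 111019271 to 111042767), had 0.809, 1.03 and 1.16 in Solvent and 85.0, 122 and 67.9 in DNCB. For Camp, the gene of the antimicrobial peptide cathelicidin (chromosome 9, 109847379 to 109849617), the levels were 1.35, 1.90 and 1.36 in Solvent and 86.9, 122 and 70.8 in DNCB. In all of these genes each DNCB library was above each Solvent library by a wide margin, and DNCB 2 was the highest. Their log2 fold changes were 6.76 (adjusted p 2.01e-08, SE 0.42) for Ngp, 6.5 (adjusted p 4.87e-08, SE 0.45) for Ltf and 5.92 (adjusted p 6.38e-08, SE 0.43) for Camp. Lcn2, which encodes the siderophore-binding lipocalin 2 (chromosome 2, 32384633 to 32387797), went from 1.56 ± 0.140 (SD, n = 3) to 95.2 ± 24.6 (SD, n = 3) FPKM. Ly6g, the surface antigen that defines mouse neutrophils (chromosome 15, 75155240 to 75159126), had 0.634, 0.909 and 0.496 FPKM in Solvent and 47.8, 71.4 and 39.9 in DNCB. It passed the filter through DNCB alone, and its change on the log2 scale was 6.26 (adjusted p 4.92e-08, SE 0.44).

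Of 20 granule protein genes listed, 15 were tested and all 15 rose, 12 of them among the genes that did not pass through DNCB alone. Their median log2 fold change was 5.27 beside 0.07 for all tested genes. Mpo, Elane, Prtn3 and Ctsg, the primary granule genes that are transcribed in bone marrow promyelocytes, were below the filter, with mean levels in DNCB of 0.279, 0.320, 0.679 and 0.208 FPKM. The tested members that rose are secondary, tertiary or secreted proteins and enzymes, such as the collagenase gene Mmp8 (5.72), the neutrophil surface gene Cd177 (5.27), the deiminase gene Padi4 (4.42) and the gelatinase gene Mmp9 (3.92). Lysozyme gene Lyz2, which monocytes also express, changed least of the list, with 159.8, 92.5 and 51.3 FPKM in Solvent, 452, 614 and 382 in DNCB and a log2 fold change of 2.25 (adjusted p 9.36e-05, SE 0.33). Ngp, Ltf, Camp and Mmp9 are also in the neutrophil marker list.

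The stefin A genes, a mouse cluster of small inhibitors of cysteine proteases on chromosome 16, were among the largest rises. Stfa2 (chromosome 16, 36403992 to 36408457) had 0.587, 0.840 and 0.342 FPKM in Solvent and 61.3, 89.6 and 62.1 in DNCB, and Cstdc5 (chromosome 16, 36359382 to 36367748) had 0.922, 1.3 and 0.510 in Solvent and 63.4, 105 and 81.2 in DNCB. No Solvent value came near a DNCB value, and the log2 fold changes of 6.87 (adjusted p 3.00e-08, SE 0.46) and 6.47 (adjusted p 2.68e-07, SE 0.53) were among the largest of all genes whose Solvent level was above the floor. The floor was set at 12 counts in each of 3 libraries. Stfa3 lay under it in Solvent, with 0 in every library, and was at least 81.5-fold higher in DNCB. In all, 6 of 7 tested members of 11 listed rose, 5 of the 7 having passed through DNCB alone, and the median with 2 genes at their bound was 6.35. These genes are near-identical neighbours, and how the counting split reads among them is uncertain.

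S100a8 and S100a9, whose proteins form the alarmin calprotectin, were the most abundant of the genes that rose. S100a8 had 80.5, 92.7 and 41.6 FPKM in Solvent and 1713, 2661 and 1761 in DNCB, and S100a9 had 238, 279 and 132 in Solvent and 3792, 5933 and 3833 in DNCB. The lowest DNCB library was many times above the highest Solvent library in both. Their log2 fold changes were 4.84 (adjusted p 3.44e-07, SE 0.41) and 4.39 (adjusted p 3.96e-07, SE 0.37). After them in level came Retnlg, a secreted protein gene of the neutrophil marker list, with 24.3, 23.8 and 13.3 FPKM in Solvent, 523, 944 and 602 in DNCB and a log2 fold change of 5.08. S100a6 and S100a11, calcium-binding genes of many cell types, rose too, at 3.68 and 3.27. S100a4, S100a10, S100a1 and S100a13 were not called, with log2 fold changes of 0.29, 0.05, 0.24 and 0.40, so the family of 8 tested members split evenly.

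**Figure D3:**
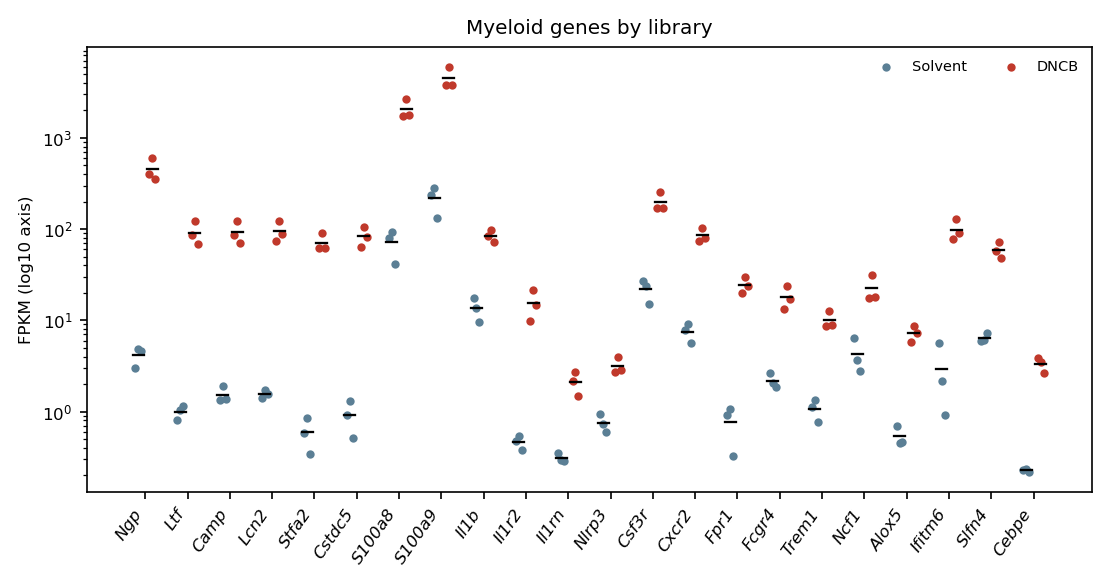
Points give the FPKM of 22 myeloid genes in each Solvent and DNCB library on a log10 axis, with a black bar at each group mean. In every gene drawn the 3 DNCB points lie above the 3 Solvent points, from Il1rn, with a mean of 2.11 FPKM in DNCB, to S100a9, with 4519. All 22 were called higher and picked with their values known. Some, such as Il1rn and Nlrp3, passed the filter through DNCB alone, which fixed their separation.

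The interleukin 1 system rose as a ligand together with its inhibitors. Il1b, the secreted inflammatory ligand, had 17.3, 13.6 and 9.58 FPKM in Solvent and 83.1, 97.9 and 72.3 in DNCB. Il1rn, which encodes the natural receptor antagonist, had 0.354, 0.296 and 0.285 in Solvent and 2.15, 2.70 and 1.49 in DNCB, and Il1r2, the decoy receptor that binds the ligand without signalling, had 0.472, 0.539 and 0.382 in Solvent and 9.94, 21.3 and 14.7 in DNCB. The groups were separate in all of them, and the decoy receptor differed most. Log2 fold changes were 2.64 (adjusted p 0.000153, SE 0.40) for Il1b, 2.74 (adjusted p 0.000329, SE 0.46) for Il1rn and 5.02 (adjusted p 5.50e-06, SE 0.55) for Il1r2. The co-receptor gene Il1rap (2.75), the interleukin 18 binding protein gene Il18bp (2.26) and the co-receptor gene Il18rap (2.02) also rose, Il18bp not without Solvent 3 (adjusted p 0.0617), and Il18r1 was not called (-0.37, adjusted p 0.547). Of 11 genes listed 7 were tested and 6 rose, 2 of those 6 without having passed through DNCB alone. The ligand genes Il1a and Il18 and the signalling receptor gene Il1r1 were below the filter, with mean levels in DNCB of 0, 0.221 and 0.134 FPKM.

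Inflammasome genes encode the sensors and proteases that mature interleukin 1 beta. The sensor gene Nlrp3 had 0.949, 0.728 and 0.591 FPKM in Solvent and 2.71, 4.00 and 2.86 in DNCB, and Nlrp12 had 0.664, 0.638 and 0.518 in Solvent and 3.51, 5.56 and 3.97 in DNCB. Both rose, by 2.08 and 2.84 on the log2 scale, with groups that did not overlap. Mefv (2.69), the gene of pyrin, and Casp4 (2.46) rose as well, and in all 6 of 8 tested members of 13 listed were called. All 6 had passed the filter through DNCB alone, so this count supports nothing beyond their own values. The protease gene Casp1 had 1.24, 0.784 and 0.552 FPKM in Solvent and 1.60, 2.95 and 1.72 in DNCB, did not overlap, and was not called at 1.28 (adjusted p 0.130, SE 0.59), and the pore gene Gsdmd was not called at 0.69. Casp1 was called under TMM (adjusted p 0.0264), in the 6 libraries alone (0.0102) and without scivMSC 1 (0.0265). Pycard and Aim2 were below the filter, at 0.689 and 1.01 FPKM on average in DNCB.

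Among Toll-like receptor genes, 10 of 13 tested members of 20 listed rose and none fell, with a median of 2.47. Single-group genes made up 3 of the 10, which leaves 7. The receptors for bacterial products Tlr2 (2.92), Tlr4 (2.48), Tlr6 (1.97) and Tlr13 (3.09) and that for RNA, Tlr8 (2.73), were among them, with the lipopolysaccharide co-receptor gene Cd14. Cd14 had 1.41, 1.15 and 0.498 FPKM in Solvent and 7.14, 13.4 and 7.96 in DNCB, and its log2 fold change was 3.21 (adjusted p 0.00488, SE 0.75). All DNCB libraries were above all Solvent libraries, and Solvent 3 was the lowest. The adaptor genes Tirap (3.51) and Myd88 (2.47) also rose, whereas the kinase gene Irak1 was not called (-0.55). Tlr3, Tlr5 and Tlr9 were below the filter.

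Receptors that answer growth factors of granulocytes rose. Csf3r, the receptor of G-CSF, had 27.1, 23.7 and 15.2 FPKM in Solvent and 172, 253 and 168 in DNCB, and its log2 fold change was 3.17 (adjusted p 2.62e-05, SE 0.40). Csf2rb2 (2.99) and Csf2ra (1.88), parts of the receptors for interleukin 3 and GM-CSF, rose as well. Il6st, the shared signalling chain of the interleukin 6 family, fell, with 2.41, 1.38 and 1.24 FPKM in Solvent, 0.656, 0.804 and 0.508 in DNCB and a log2 fold change of -1.35 (adjusted p 0.0416, SE 0.46). This call did not hold in 8 of the 12 fits that leave out 1 library, those without Solvent 1, Solvent 2, DNCB 1, DNCB 2, DNCB 3, scMSC 1, scMSC 2 or scMSC 3 (adjusted p up to 0.172). Of 9 tested members of 12 listed, 7 rose and 1 fell. Single-group genes were 2 of the 7 rises, which leaves 5, and also the fall, that of Il6st. The count of 7 was 4 without Solvent 2, Solvent 3 or DNCB 2.

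Of the receptors and signalling genes of interleukins 4, 13 and 17 some were called and others were not. Il13ra1, the interleukin 13 receptor chain, had 1.25, 1.03 and 0.685 FPKM in Solvent and 5.68, 10.4 and 8.28 in DNCB, without overlap, and rose by 3.04 (adjusted p 0.000366, SE 0.51). Its partner Il4ra had 5.51, 3.27 and 2.57 in Solvent and 4.80, 8.64 and 7.19 in DNCB, where DNCB 1 lay inside the Solvent range, and was not called at 0.86 (adjusted p 0.127, SE 0.39). Without Solvent 1 it was called (adjusted p 0.0490). Il17ra, a chain of the interleukin 17 receptor, had 5.92, 4.44 and 3.06 FPKM in Solvent and 9.66, 13.9 and 8.77 in DNCB, without overlap, and was not called at 1.27 (adjusted p 0.0607, SE 0.47). It was called under TMM (adjusted p 0.00763), in the 6 libraries alone (0.000845) and without scivMSC 1 or scivMSC 2 (as low as 0.00305). Il2rg, the common gamma chain of lymphocyte receptors, fell, with 18.8, 12.5 and 11 FPKM in Solvent and 6.81, 7.67 and 4.29 in DNCB, a log2 fold change of -1.17 (adjusted p 0.0238, SE 0.35), and was not called without Solvent 1, DNCB 1 or DNCB 3 (adjusted p up to 0.107). Of the kinases Jak1, Jak2, Jak3 and Tyk2 none was called by edgeR, at 0.06, 0.74, -0.61 and -0.33 (adjusted p from 0.121 to 0.920), of which Jak2 alone had an unadjusted p under 0.05 (0.0379), and Jak1 was at -0.13 under TMM. Jak2 was called without Solvent 1 (adjusted p 0.0354). Socs3, a feedback inhibitor of these kinases, rose by 2.09 (adjusted p 0.000721, SE 0.38). The 4 higher calls among 14 tested members of 20 listed were 2 without Solvent 2, Solvent 3 or DNCB 2, and the lower calls were 2 under TMM. Among all tested genes 16.6% were called higher, and 12% lower under TMM.

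Of 9 tested chemokine receptor genes of 16 listed, 3 rose and 1 fell, with 2 falls under TMM. Among all tested genes 16.6% were called higher and 5.09% lower, and 12% lower under TMM. Cxcr2, the neutrophil receptor for CXC chemokines, had 7.88, 9.04 and 5.63 FPKM in Solvent and 73.6, 102 and 80.0 in DNCB, and Cxcr1 had 0.167, 0.0474 and 0.0854 in Solvent and 3.92, 4.42 and 3.05 in DNCB. Ccr7, which guides naive T cells and B cells to lymph nodes, had 24.0, 16.2 and 12.3 in Solvent and 5.61, 6.22 and 3.62 in DNCB. The first pair was higher and Ccr7 lower in every DNCB library, with log2 fold changes of 3.51 (adjusted p 7.04e-06, SE 0.39), 5.14 (adjusted p 0.000196, SE 0.80) and -1.76 (adjusted p 0.00226, SE 0.37), and Cxcr1 was a single-group gene. Ccr1, a receptor of monocytes and neutrophils, rose by 3.09, while Cxcr4 (0.25) and Ccr2 (0.74) were not called. Of the chemokine genes, Ccl6 rose from 11.4 ± 2.63 (SD, n = 3) to 69.0 ± 13.6 (SD, n = 3) FPKM and Ccl5, a product of T and NK cells, fell from 16.7 ± 3.24 (SD, n = 3) to 7.14 ± 1.66 (SD, n = 3). The Ccl5 call was lost without Solvent 1, Solvent 2, DNCB 1 or DNCB 2 (adjusted p up to 0.141).

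All 6 tested chemoattractant receptor genes of 10 listed rose, 4 of them without having passed through DNCB alone, with a median of 4.05. Fpr1, the receptor for bacterial formyl peptides, had 0.927, 1.06 and 0.329 FPKM in Solvent and 19.8, 30.1 and 23.8 in DNCB. C5ar1, the receptor for complement fragment C5a, had 2.38, 1.65 and 1.31 in Solvent and 20.3, 32.8 and 21.5 in DNCB. The groups stood apart in both, and the log2 fold changes were 4.98 (adjusted p 3.96e-06, SE 0.51) and 3.8 (adjusted p 1.25e-05, SE 0.45). Fpr2 (4.92), the leukotriene B4 receptor gene Ltb4r1 (4.30), Hcar2 (3.00) and the platelet-activating factor receptor gene Ptafr (2.56) completed the set.

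Adhesion genes showed 5 rises among 13 tested members of 16 listed, and 3 without Solvent 2, Solvent 3 or DNCB 2. None was called lower, but 3 were under TMM and 2 in the 6 libraries alone. The hyaluronan receptor gene Cd44 (2.05), the selectin ligand gene Selplg (1.92) and the integrin chain gene Itgb2 (1.84) rose. Itgal, its partner in LFA-1, had 8.83, 6.54 and 5.66 FPKM in Solvent and 16.7, 18.8 and 13.3 in DNCB, and rose by 1.22 (adjusted p 0.0129, SE 0.33), but not without Solvent 2, Solvent 3 or DNCB 2 (adjusted p up to 0.0653). For Itgam, the partner in Mac-1, the call at 1.57 (adjusted p 0.0345, SE 0.51) was lost when any of the 6 libraries was left out (adjusted p up to 0.129), although no DNCB library overlapped a Solvent library.

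Among receptors for antibodies, the called genes of myeloid cells rose and those of B cells fell. Fcgr4, a receptor for IgG, had 2.61, 2.04 and 1.88 FPKM in Solvent and 13.4, 23.8 and 17.3 in DNCB, and Fcgr3 had 3.83, 4.36 and 2.45 in Solvent and 22.9, 40.1 and 20.9 in DNCB. Fcer2a, the low-affinity IgE receptor of B cells (chromosome 8, 3681737 to 3694175), had 10.1, 4.21 and 2.53 in Solvent and 0.678, 1.68 and 0.749 in DNCB. Log2 fold changes were 3.05 (adjusted p 0.000313, SE 0.50), 2.98 (adjusted p 0.000141, SE 0.45) and -2.43 (adjusted p 0.00500, SE 0.57), and each was separate between groups. The signalling chain genes Fcer1g (2.67) and Tyrobp (2.71) and the kinase genes Fgr (2.81), Lyn (1.68) and Syk (1.39) rose. The IgM receptor gene Fcmr fell by 2.08 on the log2 scale. In all, 8 of 15 tested members of 16 listed rose and 2 fell, and none of the 15 had passed through a single group.

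Of 17 tested surface receptor genes of the Trem, Lilr, Siglec and C-type lectin families (18 listed), 15 rose, with a median of 3.04. Single-group genes made up 4 of the 15, which leaves 11. Trem1, which amplifies inflammatory signals, had 1.11, 1.32 and 0.760 FPKM in Solvent and 8.67, 12.7 and 8.85 in DNCB. Siglece, an inhibitory receptor, had 2.70, 2.30 and 1.31 in Solvent and 24.0, 38.8 and 26.2 in DNCB, and both activating and inhibitory members were thus higher in every DNCB library, by 3.24 (adjusted p 8.70e-06, SE 0.37) and 3.82 (adjusted p 5.00e-05, SE 0.52). Clec4d (3.04), Clec4e (3.09) and Clec7a (2.69), lectins for microbial glycans and glycolipids, rose together with the inhibitory genes Pirb (2.87) and Clec12a (2.92). Treml2 (0.32) and Pira2 (1.25) were not called, but Pira2 was in the 6 libraries alone (adjusted p 0.00847) and without scivMSC 2 (0.0423).

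The phagocyte NADPH oxidase makes superoxide from a membrane core and cytosolic subunits. All 7 genes were tested and 6 rose. In all 7 every DNCB library was above every Solvent library, beside 25.8% of all tested genes. Among the cytosolic subunits, Ncf1 had 6.38, 3.63 and 2.77 FPKM in Solvent and 17.7, 31.4 and 18.2 in DNCB, a log2 fold change of 2.39 (adjusted p 0.000337, SE 0.40), and Ncf4 rose by 2.55. Of the membrane core, Cybb had 4.74, 3.05 and 1.29 in Solvent and 8.15, 12.3 and 7.33 in DNCB, a log2 fold change of 1.61 (adjusted p 0.0176, SE 0.46), and Cyba had 1.68. The Cybb call was lost without Solvent 2, Solvent 3 or DNCB 2 (adjusted p up to 0.0812). Leukotriene synthesis showed a like pattern: Alox5, the 5-lipoxygenase gene, had 0.700, 0.449 and 0.463 FPKM in Solvent and 5.83, 8.76 and 7.30 in DNCB, and its activating protein gene Alox5ap had 17.5, 14.6 and 7.37 in Solvent and 86.0, 142 and 106 in DNCB. Both rose without overlap, by 3.74 (adjusted p 4.33e-06, SE 0.39) and 3.08 (adjusted p 5.50e-06, SE 0.34), whereas Lta4h, which makes leukotriene B4, was not called (0.86), and Ltc4s and Ptgs2 were below the filter. The lipoprotein-bound phospholipase gene Pla2g7 (3.08) rose as well, and 4 of 7 tested genes of 14 listed rose in all, 2 of them single-group genes.

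Genes that interferons induce had a median close to that of all tested genes. Of 18 tested members of 25 listed, 4 rose and none fell, beside 16.6% called higher and 5.09% called lower among all tested genes. The median was 0.10, or -0.07 under TMM, beside 0.07 and -0.09 for all tested genes. Under TMM 2 were called lower. The 4 were Oasl1, Oas2, Rtp4 and Oas3, with Oasl1 at 1.24, 1.51 and 1.04 FPKM in Solvent and 6.15, 7.94 and 4.71 in DNCB. Isg15, a standard reporter of the response, had 95.1, 60.9 and 91.8 in Solvent and 82.4, 61.3 and 88.1 in DNCB, with overlapping groups and a log2 fold change of -0.10 (adjusted p 0.863, SE 0.29). Irf7 had -0.43 (adjusted p 0.353), and Ifit1, Ifit2, Ifit3 and Rsad2 lay between -0.40 and 0.20 with no call. Against this, all 4 tested Ifitm genes rose: Ifitm6 had 5.65, 2.17 and 0.912 FPKM in Solvent and 78.4, 128 and 89.7 in DNCB, and Ifitm1 had 5.71, 8.22 and 3.41 in Solvent and 116, 181 and 146 in DNCB. The changes of Ifitm6 (5.08), Ifitm1 (4.67) and Ifitm2 (3.19) were larger than that of Ifitm3 (1.55) as fitted values, a difference that was not tested. Of the Schlafen family, growth regulators of leukocytes, Slfn4 (3.22), Slfn1 (1.85) and Slfn2 (1.42) rose, and Slfn5 and Slfn8 were not called (0.74 and -0.16).

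Basophil transcripts were low. The basophil protease genes Mcpt8 and Prss34 rose. Mcpt8 had 0.485, 0.621 and 0.353 FPKM in Solvent and 3.60, 3.69 and 3.18 in DNCB, a log2 fold change of 2.82 (adjusted p 0.00404, SE 0.64), and Prss34 was under the floor in Solvent and at least 16-fold higher in DNCB, at 2.34 ± 0.824 (SD, n = 3) FPKM. Both, and Cpa3, which was not called (1.17), had passed through DNCB alone, so the filter fixed the separation of their groups. Below the filter, mean FPKM in Solvent and DNCB was 0.238 and 0.635 for Fcer1a and 0.299 and 0.893 for Ms4a2. For Cd200r3 it was 0.225 and 0.267, and for Ccr3 0.256 and 0.287. The eosinophil genes Epx, Prg2 and Siglecf were below the filter, at 0.0179, 0.298 and 0.600 FPKM on average in DNCB.

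The 10 neutrophil markers summed to 219.8 to 445 FPKM in Solvent and 6975 to 10927 in DNCB, with no marker at 0. S100a8 and S100a9 held most of these sums. All 10 markers are themselves among the myeloid genes above, and genes called higher are higher in DNCB by definition. That they rose in the same libraries is therefore not separate evidence. The part of these markers in the results was not tested.

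B cell genes were lower in DNCB. Cd79a, which encodes a signalling chain of the B cell receptor, had 55.4, 27.9 and 17.1 FPKM in Solvent and 6.06, 13.8 and 5.53 in DNCB, and Ms4a1, the gene of CD20, had 6.04, 3.64 and 2.09 in Solvent and 0.591, 1.37 and 0.469 in DNCB. Every DNCB library was below every Solvent library, with DNCB 2 the highest of its group and Solvent 3 the lowest of its own. Log2 fold changes were -1.98 (adjusted p 0.00419, SE 0.45) and -2.27 (adjusted p 0.00452, SE 0.52). Pax5, the factor that fixes B cell identity (chromosome 4, 44524757 to 44710487), had 4.45, 2.11 and 1.22 in Solvent and 0.368, 0.673 and 0.345 in DNCB and fell by 2.48 (adjusted p 0.00356, SE 0.55). Spib, a factor of mature B cells (chromosome 7, 44525993 to 44532071), had 10.1, 5.67 and 3.88 in Solvent and 1.06, 1.79 and 1.01 in DNCB and fell by 2.34 (adjusted p 0.00155, SE 0.47). Of 24 genes listed for the B cell receptor and B cell identity 18 were tested and 14 fell, with a median of -1.98. The exceptions were Btk, Cd37 and Cd24a, expressed outside B cells too, at 0.48, 0.27 and -0.01, and Cxcr5 at -1.28, none of them called. Cxcr5 was called under TMM (adjusted p 0.00411), in the 6 libraries alone (0.00836) and without Solvent 3, scivMSC 1 or scivMSC 2 (as low as 0.0219). Single-group genes made up 3 of the 14 falls, which leaves 11, and the 14 were 8 without Solvent 1, without DNCB 1 or without DNCB 3.

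Immunoglobulin genes fell with them. Ighm, the IgM heavy chain gene, had 84.9, 58.0 and 33.2 FPKM in Solvent and 12.5, 22.9 and 11.3 in DNCB, and Igkc, the kappa chain constant gene, had 214, 216 and 91.5 in Solvent and 53.0, 65.9 and 24.2 in DNCB. The groups did not overlap, and log2 fold changes were -1.92 (adjusted p 0.00116, SE 0.37) and -1.86 (adjusted p 0.00493, SE 0.44). Of 9 tested constant genes of 13 listed, J chain included, 8 fell, with 5 falls without Solvent 1 or without DNCB 3. Ighg1, the constant gene of the IgG1 class, was the exception, with 0.712, 1.79 and 0.774 FPKM in Solvent, 2.00, 1.88 and 0.505 in DNCB and 0.42 (adjusted p 0.584, SE 0.48). The IgE gene Ighe was below the filter. Among variable genes, 16 of 47 tested kappa genes of 102 fell and 9 of 14 tested heavy chain genes of 95 fell. Of all tested genes 5.09% were called lower. Of these 47 and 14 tested genes 3 and 9 had passed through Solvent alone, which leaves 13 kappa falls and 1 heavy chain fall. Near-identical family members can also share reads, so these counts are uncertain. The kappa count was 5 without Solvent 1, 7 without Solvent 2, 8 without DNCB 1, 2 without DNCB 3 and 28 without scivMSC 2, and 29 under TMM and 35 in the 6 libraries alone. The heavy chain count was 5 without Solvent 1, 3 without Solvent 2, 3 without DNCB 2 and 2 without DNCB 3.

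MHC class II genes, which present antigen on B cells, monocytes and dendritic cells, were lower. Cd74, the invariant chain gene, had 150.2, 74.9 and 40.1 FPKM in Solvent and 20.6, 40.0 and 15.3 in DNCB, and fell by 1.80 (adjusted p 0.00888, SE 0.46). The chain gene H2-Aa had 18.2, 8.23 and 4.86 in Solvent and 2.65, 5.42 and 1.70 in DNCB, where DNCB 2 lay above Solvent 3, and fell by 1.67 (adjusted p 0.0227, SE 0.50). H2-Ob, a modulator of peptide loading in B cells (chromosome 17, 34238903 to 34249309), had 4.70, 2.01 and 1.44 in Solvent and 0.547, 0.897 and 0.175 in DNCB and fell by 2.32 (adjusted p 0.00620, SE 0.56). Of 9 tested genes of 11 listed, 6 fell, 1 of them a single-group gene, with a median of -1.80. The falls were 1 without Solvent 1 and 3 without DNCB 1 or without DNCB 3. Without Solvent 1 the adjusted p of Cd74 was 0.0808, and that of H2-Aa reached 0.175 with 1 library left out.

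T cell genes were lower as well. Cd3e, a chain of the T cell receptor complex, had 6.41, 4.15 and 3.86 FPKM in Solvent and 1.69, 1.55 and 1.1 in DNCB, and Cd8a had 6.05, 4.23 and 3.43 in Solvent and 1.61, 1.27 and 1.08 in DNCB. Neither overlapped between groups, and the log2 fold changes were -1.73 (adjusted p 0.00190, SE 0.36) and -1.78 (adjusted p 0.00281, SE 0.39). Cd28, the co-stimulatory receptor gene, fell by 1.88 and the naive T cell factor gene Lef1 fell by 1.81. Lck, the kinase that starts receptor signalling, had 20.8, 12.8 and 13.8 in Solvent and 6.99, 7.06 and 5.38 in DNCB, and its call at -1.28 (adjusted p 0.0136, SE 0.35) was lost without Solvent 1 or without DNCB 3 (adjusted p up to 0.0610). Cd3d, a further chain of the same complex, overlapped between groups, at 12.7, 9.31 and 7.47 in Solvent and 7.17, 8.07 and 5.52 in DNCB, and was not called at -0.50 (adjusted p 0.372, SE 0.37). Of 26 tested genes of 28 listed 18 fell, with a median of -1.32, and 10 fell without Solvent 1, 9 without DNCB 3 and 11 by limma on log2(FPKM + 1). Single-group genes made up 4 of the 18, which leaves 14. Lcp2, an adaptor also used by platelets and myeloid cells, was the gene of the list that lay above 0 (0.79, adjusted p 0.0845).

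Helper and regulatory T cell genes were mostly below the filter. Only 2 of 14 passed the filter, and the cytokine genes Il4, Il13, Ifng and Il10 and the factor genes Foxp3, Gata3 and Tbx21 did not. Cd40lg, the helper signal to B cells, had 2.85, 1.24 and 1.44 FPKM in Solvent and 0.327, 0.534 and 0.284 in DNCB, was a single-group gene and was called at -2.24 (adjusted p 0.0422, SE 0.76), and lost its call without any of the 6 libraries or any scMSC library (adjusted p up to 0.156). Of 8 tested cytotoxic genes of 14 listed 5 fell, 1 of them a single-group gene. Gzma, a granzyme of NK cells and T cells, had 19.7, 21.4 and 17.9 in Solvent and 6.92, 8.71 and 5.90 in DNCB, without overlap, and a log2 fold change of -1.45 (adjusted p 0.0345, SE 0.47), called in none of the fits without 1 of the 6 libraries (adjusted p up to 0.119). Prf1, the pore protein gene, had 3.76, 3.51 and 3.01 in Solvent and 1.42, 1.35 and 1.49 in DNCB, also without overlap, and was not called at -1.26 (adjusted p 0.0803, SE 0.50), except under TMM (adjusted p 0.00214), in the 6 libraries alone (0.00772) and without scivMSC 1 or scivMSC 2 (as low as 0.0142). The 5 calls were 0 without Solvent 1, 1 without Solvent 2, DNCB 1 or DNCB 3, 2 without DNCB 2 and 3 without Solvent 3.

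**Figure D4:**
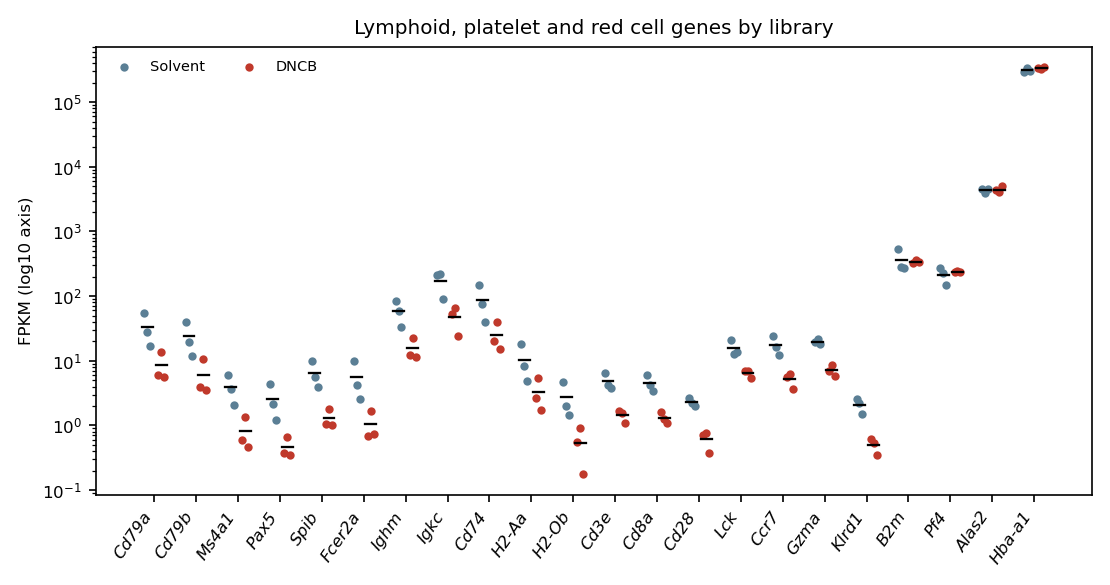
Points give the FPKM of 22 lymphoid, antigen presentation, platelet and red cell genes in each library on a log10 axis, with a black bar at each group mean. The B cell, T cell and NK cell genes on the left lie lower in DNCB, apart from H2-Aa, where the groups overlap, and B2m, Pf4, Alas2 and Hba-a1 on the right overlap between groups. Those on the left were all called lower and picked with their values known. Some, such as Pax5 and H2-Ob, passed the filter through Solvent alone, which fixed their separation.

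Most of the T and B cell markers are members of these lists themselves, so their fall in the same libraries is not separate evidence. The marker sums were 59.7 to 99.3 and 51.0 to 157 FPKM in Solvent and 24.0 to 32.7 and 13.8 to 39.1 in DNCB, with no marker gene at 0. Their part in the falls was not tested.

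MHC class I genes, which nearly all nucleated cells use, gave calls outside the classical members. B2m, the shared light chain, had 531, 279.6 and 274 FPKM in Solvent and 322, 359 and 334 in DNCB and was not called at -0.09 (adjusted p 0.859, SE 0.28), and the classical genes H2-K1 (-0.25) and H2-D1 (0.28) were not called. The 7 falls among 18 tested genes were in the non-classical genes H2-Q4, H2-Q6, H2-Q7, H2-T22 and H2-M3, in the peptide trimming gene Erap1 and in Nlrc5, the class I transactivator, which fell by 1.81 (adjusted p 0.00265, SE 0.39). Of the 18 genes 2 had passed through Solvent alone, both among the falls, which leaves 5. The falls were 3 without Solvent 1 or without DNCB 3 and 4 without DNCB 1, beside 5.09% called lower among all tested genes in the main fit. The genes are close relatives that can share reads.

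Platelet genes rose in part. Gp1bb, a subunit of the von Willebrand factor receptor, had 8.80, 5.89 and 5.41 FPKM in Solvent and 28.5, 28.3 and 23.4 in DNCB, well apart, with a log2 fold change of 2.00 (adjusted p 9.29e-05, SE 0.29). Its partners Gp1ba (1.56) and Gp9 (1.28) rose too, as did the factor V gene F5 (1.36). In all there were 7 rises among 19 tested genes of 20 listed, 4 without Solvent 3 or with haemoglobin genes left out and 5 under TMM. Pf4, the gene of platelet factor 4, had 270.1, 227 and 148 in Solvent and 235, 247 and 234 in DNCB, overlapping, and was not called at 0.15 (adjusted p 0.705, SE 0.23). Itga2b, the partner of Itgb3, had 21.9, 15.5 and 17.5 in Solvent and 33.9, 39.8 and 24.2 in DNCB, without overlap, a log2 fold change of 0.83 (adjusted p 0.0154, SE 0.23) and thus a fold change under 2, which passed only without DNCB 3.

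Red cell genes gave no call. The alpha globin gene Hba-a1 had 295845, 341288 and 300170.0 FPKM in Solvent and 333137, 328525 and 344705 in DNCB, and Alas2, the first enzyme of haem synthesis in erythroid cells, had 4553, 3961 and 4574 in Solvent and 4330.3, 4011 and 4954 in DNCB. Both overlapped, with log2 fold changes of 0.10 (adjusted p 0.257, SE 0.06) and 0.02 (adjusted p 0.911, SE 0.11). None of 6 tested globin genes of 10 listed, 9 haem synthesis genes of 13 and 12 red cell membrane genes of 19 was called by edgeR, DESeq2 or limma, and 1, 0 and 0 of them had an unadjusted edgeR p under 0.05. The medians were -0.12, -0.06 and -0.09. Slc4a1, the anion exchanger band 3 gene, had 65.1, 37.5 and 42.6 FPKM in Solvent and 47.5, 35.0 and 64.8 in DNCB, with a log2 fold change of 0.02 (adjusted p 0.969, SE 0.28).

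Iron, autophagy and antioxidant lists held some rises outside the red cell genes proper. Slc40a1, the iron exporter ferroportin, had 1.08, 0.989 and 0.765 FPKM in Solvent and 7.86, 12.9 and 8.13 in DNCB, without overlap, and rose by 3.35 (adjusted p 7.95e-06, SE 0.38), and Slc11a1, an ion transporter of phagosomes, rose by 2.35. Ferritin gene Fth1 (-0.05) and transferrin receptor gene Tfrc (0.78) were not called. Hmox1, which degrades haem, had 1.69, 1.71 and 1.90 in Solvent and 9.77, 14.0 and 9.32 in DNCB and rose by 2.64 (adjusted p 0.000177, SE 0.41), together with the redox genes Txn1 (2.44) and Glrx (1.97). Catalase gene Cat and Prdx2, abundant in red cells, were not called (-0.51 and -0.45). Of 14 tested genes for clearance of organelles and proteins in reticulocytes, 2 rose, a share near the 16.6% called higher among all tested genes. The 2 were the autophagy kinase gene Ulk1 (1.93) and Ube2h (1.22), and Bnip3l, which removes mitochondria, was not called (-0.06).

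Several myeloid transcription factor genes rose. Cebpe, which drives late granulocyte maturation, had 0.227, 0.233 and 0.219 FPKM in Solvent and 3.87, 3.49 and 2.62 in DNCB, and Spi1, the myeloid factor PU.1, had 5.49, 4.44 and 3.42 in Solvent and 28.3, 43.5 and 30.1 in DNCB. Both were separate between groups, with log2 fold changes of 3.86 (adjusted p 0.000265, SE 0.62) and 2.93 (adjusted p 4.33e-05, SE 0.39). Cebpd (3.24) and Cebpb (2.57) also rose, as did Nfe2 (1.95), a factor of red cells and platelets. Cebpa, a factor of early granulocyte development, did not overlap between groups and was not called at 1.08 (adjusted p 0.164, SE 0.53), except in the 6 libraries alone (adjusted p 0.0374) and without scivMSC 1 (0.0496). The erythroid factor gene Gata1 had -0.08 and Tal1 had -0.41, neither called. Foxo1, a factor of resting lymphocytes, was called lower at -1.64 (adjusted p 0.0263, SE 0.51), and lost the call without Solvent 1 or any DNCB library (adjusted p up to 0.123). Of 23 factors listed 16 were tested, 6 rose and 1 fell, or 3 under TMM, with a median of 0.07, or -0.09 under TMM. Cebpe and Foxo1 were single-group genes, which leaves 5 rises and no fall.

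Immediate early genes, which respond within minutes to stimuli, gave 7 rises among 13 tested of 18 listed, 2 of them single-group genes, which leaves 5. The 7 were 4 without Solvent 2, Solvent 3 or DNCB 2. Fosl2 had 0.871, 0.916 and 0.573 FPKM in Solvent and 5.06, 7.30 and 4.81 in DNCB, a log2 fold change of 2.86 (adjusted p 0.00102, SE 0.55), and Junb (1.96), Dusp1 (2.27) and Zfp36 (1.55) rose. Fos had 2.03, 0.911 and 0.578 in Solvent and 5.14, 3.78 and 3.19 in DNCB and was called at 1.77 (adjusted p 0.0247, SE 0.54), but not without Solvent 2, Solvent 3, DNCB 1 or DNCB 2 (adjusted p up to 0.113). The rise of Jun was not called without Solvent 2, Solvent 3, DNCB 2 or DNCB 3 (adjusted p up to 0.0876). Egr1 was below the filter. NF-kappaB genes, by contrast, gave 1 rise and 1 fall among 13 tested of 17 listed, with Nfkb1 at -0.02 and its inhibitor gene Nfkbia at 0.65, neither called. The calls, Nfkbid (1.41) and Ikbke (-1.47), were lost without any of the 6 libraries for Nfkbid (adjusted p up to 0.130) and without Solvent 1, Solvent 3, DNCB 1 or DNCB 3 for Ikbke (adjusted p up to 0.108). Without scivMSC 2, by DESeq2 or in the 6 libraries alone there were 3 rises. The list's median was 0.08, or -0.13 under TMM. Among all tested genes 16.6% were called higher and 5.09% lower.

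In the tumour necrosis factor family 5 of 8 tested genes of 15 listed rose, and 1, Tnfrsf14, was called lower (-1.36), a call held by 5 of the 12 fits with 1 library left out and lost without Solvent 1 or 3, any DNCB library, scMSC 1 or scMSC 3 (adjusted p up to 0.133). Under TMM 2 were called lower. The receptor gene Tnfrsf1a (2.66), the ligand gene Tnfsf14 (2.95), the death receptor gene Fas (1.75) and the induced gene Tnfaip2 (3.20) were among the rises. The other rise, that of Tnfrsf1b, lost its call in 10 of the 12 fits with 1 library left out (adjusted p up to 0.166). Tnf itself was below the filter at 1.02 FPKM on average in DNCB. Tnfaip2 had 2.35, 1.18 and 1.06 FPKM in Solvent and 12.3, 17 and 13.2 in DNCB, without overlap. Glucocorticoid response genes gave 3 rises among 7 tested of 12 listed: Fkbp5, a chaperone that feeds back on the receptor, had 0.512, 0.406 and 0.390 in Solvent and 2.14, 3.98 and 1.53 in DNCB and rose by 2.54 (adjusted p 0.00973, SE 0.66), except without DNCB 2 (adjusted p 0.0519), and Il1r2 and Dusp1, which other lists also hold, were the other calls. Fkbp5 and Il1r2 were single-group genes, which leaves 1. Tsc22d3, a further target, had 0.98 (adjusted p 0.0734) and the receptor gene Nr3c1 had 0.60, neither called.

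Glycolysis genes rose in 8 of 16 tested cases of 21 listed, and none fell. In 14 of the 16 every DNCB library was above every Solvent library, beside 25.8% of all tested genes. Of the 16, 2 had passed through DNCB alone, where the filter fixes this separation. Hk3, the hexokinase of myeloid cells, had 1.51, 1.15 and 0.702 FPKM in Solvent and 10.2, 14.3 and 9.29 in DNCB and rose by 3.32 (adjusted p 0.000516, SE 0.59). The lactate exporter gene Slc16a3 (3.18), the regulatory gene Pfkfb4 (2.86), Gpi1 (1.94) and the pyruvate kinase gene Pkm (1.47) rose, and Hk1, the hexokinase of most cells, was not called (0.14). Genes of the respiratory chain gave no call by edgeR, among 72 tested nuclear genes of 84 with a median of -0.06 and among 13 mitochondrial genome transcripts with a median of -0.25. At an unadjusted p under 0.05 there were 2 and 1, by DESeq2 3 and 1 were called lower, under TMM 2 and 1, and by limma 0 and 0.

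Few ribosomal protein genes were called. In 39 of 80 tested genes of 87 every DNCB library was below every Solvent library, beside 16.3% of all genes, and the median was -0.68, yet 3 were called, all lower. Of all tested genes 21.7% were called in either direction and 5.09% lower, so the lower calls were near the share of all genes. The list's summed FPKM overlapped between groups, at 5907, 3907 and 3770.1 in Solvent and 3736, 3905 and 3107 in DNCB, with Solvent 1 above the rest. The calls were 0 without Solvent 1 or DNCB 3, 1 without DNCB 1 and 6 without scivMSC 1 or scivMSC 2. Under TMM 15 were called lower, beside 12% of all tested genes, and in the 6 libraries alone 9, beside 9.13%. Rpl36 was the largest of the 3, with 142, 95 and 84.9 FPKM in Solvent and 46.4, 46.9 and 39.1 in DNCB, a log2 fold change of -1.28 (adjusted p 0.0222, SE 0.38), and was not called without Solvent 1 or any DNCB library (adjusted p up to 0.0888). Proteasome genes gave no call in edgeR among 32 tested of 39, with a median of -0.28 and 1 gene at an unadjusted p under 0.05, 1 lower call by DESeq2 and under TMM, 1 without scivMSC 1 or scivMSC 2, and 0 by limma. Of 17 tested histone genes of 65 listed 2 rose, a share not above the 16.6% of all tested genes, led by H2ac18 at 1.56 (adjusted p 0.0153, SE 0.44). They were 0 without Solvent 2 and 1 without Solvent 3, DNCB 1 or DNCB 2. None of 5 tested cell cycle genes of 21 was called by edgeR, DESeq2 or limma, 0 had an unadjusted p under 0.05, with the proliferation marker gene Mki67 at 0.16 (adjusted p 0.802, SE 0.36).

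Survival genes of the Bcl2 family gave 2 rises among 7 tested of 15 listed, beside 16.6% called higher among all tested genes. Mcl1, which keeps neutrophils alive, had 34.3, 26.2 and 18.7 FPKM in Solvent and 65.1, 99.8 and 64.0 in DNCB and rose by 1.53 (adjusted p 0.00289, SE 0.33), and Bid (1.48) rose, while Bcl2, which lymphocytes depend on, had 2.73, 2.06 and 1.95 in Solvent and 1.33, 1.46 and 0.662 in DNCB and was not called at -0.96 (adjusted p 0.112, SE 0.42), except under TMM (adjusted p 0.00270). Among 12 tested heat shock genes of 15 listed, Hsp90aa1 (-1.02) and Hsph1 (-1.37) fell, and both calls were lost without Solvent 2, Solvent 3, DNCB 1 or DNCB 3 (adjusted p up to 0.12 and 0.182). Under TMM 5 of the list were called lower, and by limma none. Among all tested genes 5.09% were called lower, and 12% under TMM. The call of Hsph1, whose groups overlapped, was also lost without DNCB 2 or scMSC 3.

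Falls outside these lists completed the largest changes. Scd2, a fatty acid desaturase gene (chromosome 19, 44293674 to 44306864), had 2.60, 1.4 and 1.42 FPKM in Solvent and 0.0406, 0.144 and 0.0645 in DNCB, a log2 fold change of -4.40 (adjusted p 0.0105, SE 1.16). Chst3, a sulphotransferase gene (chromosome 10, 60181532 to 60219260), had 3.41, 2.06 and 1.00 in Solvent and 0.293, 0.585 and 0.355 in DNCB, with -2.38 (adjusted p 0.00736, SE 0.59). Ly6d, a surface gene of early B cells (chromosome 15, 74762056 to 74763620), had 3.32, 2.06 and 1.39 in Solvent and 0.721, 0.479 and 0.0804 in DNCB, with -2.36 (adjusted p 0.0245, SE 0.71). Scd2, Chst3 and Ly6d were single-group genes that passed through Solvent alone. The filter thus fixed that their groups did not overlap, and their calls add no support. The Ly6d call was lost without Solvent 1, Solvent 2, DNCB 2 or DNCB 3 (adjusted p up to 0.0892). Rps13-ps1 (chromosome 8, 87047689 to 87048226), a pseudogene that can share reads with its parent, had 23.4, 3.73 and 8.05 in Solvent and 2.58, 2.09 and 1.69 in DNCB, with Solvent 1 far above its group. Among the rises, Prok2, a small chemoattractant of bone marrow cells (chromosome 6, 99711299 to 99726392), had 0, 0.105 and 0 FPKM in Solvent and 3.19, 5.68 and 3.85 in DNCB, a log2 fold change of 6.81 (adjusted p 0.000341, SE 1.14). It was a single-group gene that passed through DNCB alone. Its Solvent level rested on 1 library, and with 1 library left out its log2 fold change ranged from 6.23 to 11.97.

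**Figure D5:**
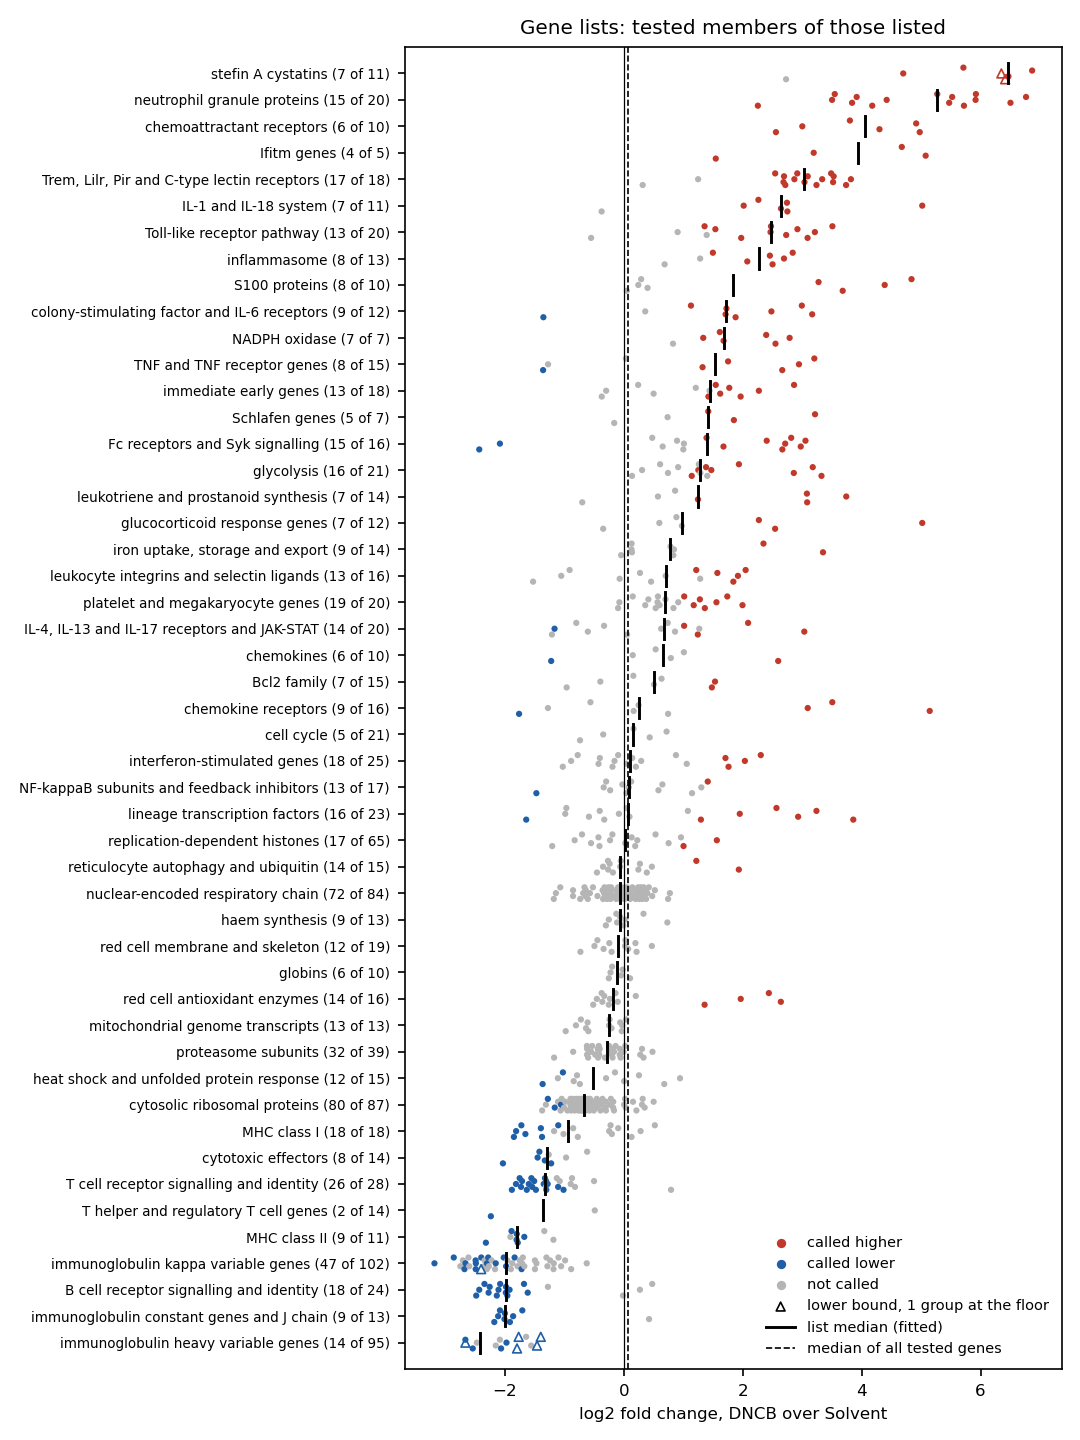
Each row is a gene list ordered by its median, with the number of tested members of those listed in brackets, and each point is a tested gene at its log2 fold change of DNCB over Solvent. Red and blue mark genes called higher and lower, black bars the list medians, the dashed line the median of 0.07 over all tested genes, and open triangles genes at the floor of 1 group, drawn at their bound. Stefin and granule genes lie furthest to the right, immunoglobulin, B cell and MHC class II genes furthest to the left, and red cell and respiratory chain genes near the dashed line.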

How the data were processed

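Whole blood RNA of 12 libraries in 4 groups of 3 was extracted with Trizol and sequenced by the authors. The authors deposited 1 table with estimated counts and FPKM values for each gene and library. The submitters' processing notes name HISAT2 2.0, StringTie 1.3.0, Bowtie 0.12.2 and the build mm8, with no role given. The deposited coordinates overlapped those of GRCm38 for 99.9% of 21441 genes matched by symbol, and are therefore given as GRCm38. Whether counting used strand is not given in the sources used here. Among count values of 1 to 12, 29% were exactly 4, so a fragment appears to weigh about 4 counts, and at 4 counts each the 58.1 M to 65.1 M counts per library would be 14.5 M to 16.3 M fragments. Reads shared by 36 symbols with more than 1 identifier were not joined.

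Counts were rounded, scaled by library totals and tested with the quasi-likelihood test of edgeR 4.0.16 (R 4.3.3) in 1 fit of all 12 libraries with a mean per group, with Benjamini-Hochberg adjustment over the 5280 genes. A gene was called at an adjusted p under 0.05 and a fold over 2. A group was at the floor when each of its 3 libraries held at most 12 counts. Alternatives were TMM scaling, leaving out haemoglobin genes, DESeq2 1.42.0, limma 3.58.1 on log2(FPKM + 1) or log2(FPKM + 0.1), no filter, a mean FPKM of at least 5, the 6 libraries alone, a replicate block, counts divided by 4 and leaving out each library. On simulated data for this comparison with 200 of 5280 genes changed 8-fold, edgeR recovered 194 with 7 false calls. DESeq2 recovered 195 with 18 false calls and limma 184 with 3. Fewer genes were changed there than were called here, and changes nearer to 2-fold were not simulated, so recovery at that size is not known. The main fit used no pairing by replicate number. Same-numbered DNCB and Solvent libraries correlated at 0.0391, 0.198 and 0.0958 in their deviations from the group means. With 3 libraries per group this cannot decide whether the numbers pair them.

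Genes and the 57 lists were chosen with earlier results of these data known. Named were the 8 largest called rises and falls that did not overlap, the first 2 members of each list and its largest call in each direction. The 8 leave out genes at the floor in their lower group, larger rises among them. They also leave out genes with only a systematic name and immunoglobulin variable genes. Other list members were added as examples after their values were seen. No list was tested as a set. Some genes are not reported here by name.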

Additional observations from a re-analysis of the deposited data

How the results depend on the processing

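No called named gene changed direction under the alternatives that were run, while the medians of the erythroid marker, interferon-stimulated, lineage factor, NF-kappaB and histone lists, all near 0, went from above to below 0 under TMM scaling. Of the 1144 calls, 875 were higher and 269 lower. The lower calls were 634 under TMM scaling, 572 with haemoglobin genes left out, 599 by DESeq2 and 482 in the 6 libraries alone. With a mean FPKM of at least 5, which leaves 1328 genes, 429 genes were called, 364 higher and 65 lower. With 1 library left out, the lower calls ranged from 93 without DNCB 3 to 415 without scivMSC 2. Among 135 named genes, 102 were called, and 73 of these held in all 12 fits without 1 library. By limma on log2(FPKM + 1) 9 named genes lost their call, and with no filter 22 did. A fit with the replicate number as a block called 1182 genes. DNCB 1 correlated best with Solvent 3 (0.131), DNCB 2 with Solvent 2 (0.198) and DNCB 3 with Solvent 3 (0.0958). With 3 libraries per group these values cannot decide whether the numbers pair the libraries. Genes below the filter that held any count were tested in the fit with no filter, and haemoglobin transcripts limit the depth left for all other genes.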

Other observations

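The deposited table also assigns genes to KEGG pathways, and 233 pathways held at least 15 tested genes. As a description chosen after the values were seen, with no test and with pathways that share genes, the highest median log2 fold changes were those of fat digestion and absorption (2.12 over 15 genes, 6 higher and 0 lower) and Staphylococcus aureus infection (1.71 over 24 genes, 14 higher and 6 lower). Complement and coagulation cascades followed with 1.36 over 21 genes, 11 higher and 1 lower, and osteoclast differentiation with 1.13 over 83 genes, 40 higher and 3 lower. At the other end, graft-versus-host disease was lowest with -1.53 over 30 genes, 3 higher and 14 lower. Autoimmune thyroid disease and allograft rejection followed, each with -1.40 over 25 genes, 1 higher and 13 lower. Next came the intestinal immune network for IgA production (-1.34), type I diabetes mellitus (-1.22) and primary immunodeficiency, with -1.17 over 37 genes, 2 higher and 21 lower. The median of all tested genes was 0.07, with 16.6% called higher and 5.09% called lower.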
